A study of Mus musculus with 9 samples.

Results

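The 10 genes described here are markers of the epithelium that lines the oviduct: *Pax8*, *Ovgp1*, *Epcam*, *Cdh1*, *Krt8*, *Krt18*, *Elf3*, *Grhl2*, *Esrp1* and *Cldn4*. They were listed by name, as a contrast to genes of the smooth muscle wall, from the 21755 protein-coding genes that GENCODE M21 places on the autosomes and X of GRCm38 (mm10). All PBRM1 and BRG1 peaks in each gene body and 20 kb to either side of it were taken. A peak belonged to the promoter of a gene when its summit lay within 2 kb of an annotated start, and a summit beyond 2 kb of every annotated start was distal.

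Chromatin immunocleavage sequencing (ChIC-seq), in which an antibody tethers micrococcal nuclease to its target and the cut fragments are sequenced, had been performed on primary oviductal muscle cells of WT mice on D2 (day 2) of pregnancy, after mating with stud males. The labels give an age of 8 to 12 weeks, and cell digests of whole oviduct were filtered, plated for some hours and fixed, with 50000 cells per library. The 9 samples form groups of 3 libraries, which carried antibodies against PBRM1 (BAF180), which is found in the PBAF variant of SWI/SNF remodelers, against BRG1 (encoded by *Smarca4*), a catalytic ATPase of SWI/SNF complexes, or IgG. The IgG libraries were not analysed here. The cells are labelled as muscle, the protocol names no step that removes epithelium other than filtering and plating, and nothing states whether replicates came from separate mice.

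PAX8 is a transcription factor of the Müllerian duct that remains in the secretory cells of the oviduct, and *Ovgp1* encodes the oviductal glycoprotein those cells release. GRHL2 and ELF3 are epithelial transcription factors, and ESRP1 directs epithelial splicing. *Epcam*, *Cdh1* (E-cadherin), *Cldn4* (a tight junction claudin) and the keratin pair *Krt8* and *Krt18* encode the adhesion and filament proteins of simple epithelia. Smooth muscle cells use little of this program, and SWI/SNF complexes are found at both active promoters and enhancers.

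The libraries held from 14284532 to 23992352 fragments and from 31970 to 39467 peaks each. Levels are given as FPM, the pileup of a peak (the number of fragments over its summit) per 1000000 fragments of the library. A list holds no value where no peak was called, and the lowest pileup called was 0.333 to 0.420 FPM, so a missing peak means that none was called at this depth and not that the protein was absent. Over all genes with a promoter peak, the median level was 1.26, 1.27 and 1.04 FPM in PBRM1 replicates 1 to 3 and 1.70, 1.68 and 1.73 in BRG1 replicates 1 to 3.

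To determine whether PBRM1 and BRG1 were found at the start sites of the epithelial genes, promoter peaks were counted in the 6 replicate lists. None of the 10 genes had a promoter peak in all 6 lists, against 9092 of the 21755 protein-coding genes (41.8%). *Pax8*, *Ovgp1*, *Epcam*, *Esrp1* and *Cldn4* had a promoter peak in no replicate list, which is 5 of 10 against 34.3% of protein-coding genes. The other 5 had one in 1 to 3 lists, a class that held 12.0% of protein-coding genes. Per library, the number of epithelial genes with a promoter peak was 3, 0 and 1 for PBRM1 replicates 1 to 3 (1.33 ± 1.53, SD, n = 3) and 1, 3 and 1 for BRG1 (1.67 ± 1.15, SD, n = 3). In these lists 51.2% to 58.2% of all protein-coding genes had one. Since the genes are few and were chosen by name with earlier results of these data known, the counts are a description without a test.

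**Figure D1:**
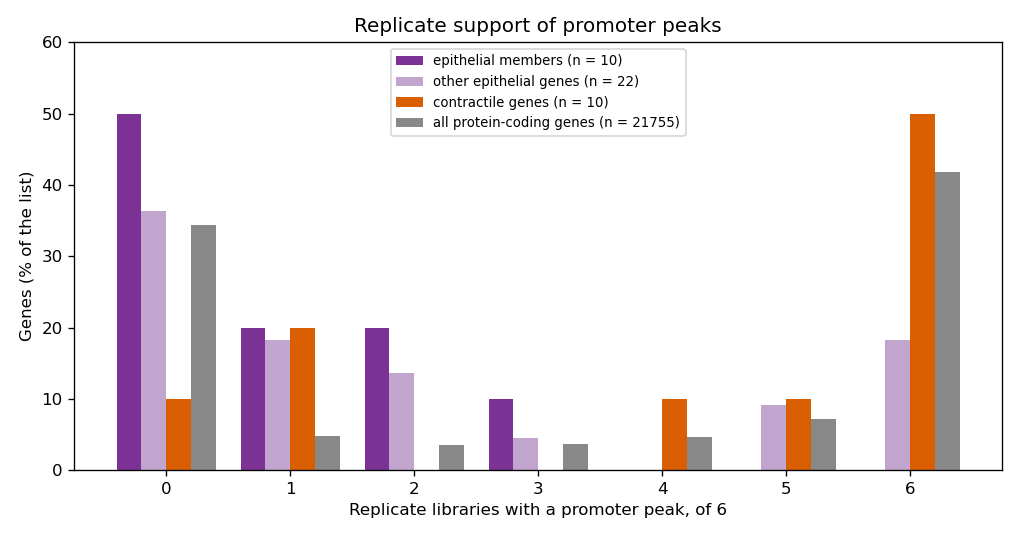
Share of each gene list (y axis, percent of genes) by the number of the 6 replicate libraries with a promoter peak (x axis), as bars for the 10 epithelial genes, 22 other epithelial genes, 10 contractile genes and all 21755 protein-coding genes. The epithelial genes stop at 3 libraries, whereas 41.8% of all protein-coding genes and 5 of the 10 contractile genes reach 6.

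*Cdh1*, the adherens junction cadherin, had the most support, with promoter peaks in 3 lists. Its level was 0.505 FPM in PBRM1 replicate 1, 0.770 in BRG1 replicate 2 and 1.06 in BRG1 replicate 3, with no peak in the other 3 libraries. The 3 summits lay 35 to 72 bp upstream of the start, and 1 merged region, chr8:106603089-106603649, held them. *Krt8*, which encodes a type II keratin of simple epithelia, had 0.625 FPM in PBRM1 replicate 3 and 0.910 in BRG1 replicate 2. These summits lay in the gene, 1405 and 1296 bp past the start and within 2 kb of the start of the noncoding gene *Gm36026*. *Krt18*, its type I partner, had 1 peak of 0.556 FPM in PBRM1 replicate 1, with the summit 17 bp before the start. No BRG1 replicate list held a promoter peak of *Krt18*.

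Among the regulators, *Elf3* had 1 peak, 0.910 FPM in BRG1 replicate 2, 555 bp before a start. *Grhl2* had 0.606 FPM in PBRM1 replicate 1 and 0.692 in BRG1 replicate 1. These 2 peaks did not overlap: the PBRM1 summit lay 715 bp before a start and the BRG1 summit 17 bp from one. Both summits were also within 2 kb of a start of *Gm16136*, and the PBRM1 summit lay in a noncoding exon of that gene. All 5 genes with any promoter peak thus had it in a minority or in 3 of the 6 libraries, and no library had them all. The 9 called levels ran from 0.505 to 1.06 FPM (median 0.692), and 9 of 9 were below the all-gene median of their own library, as were 24 of the 41 values called for the contractile genes described next.

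The contractile genes, encoding actins, myosin and their regulators, were read in the same way. *Acta2* (smooth muscle actin), *Tagln* (transgelin), *Mylk* (myosin light chain kinase), *Cald1* (caldesmon) and *Smtn* (smoothelin) had a promoter peak in all 6 lists, 5 of 10 genes against the same 41.8%. *Lmod1* had one in 5 lists, *Des* in 4, *Actg2* and *Myh11* in 1 each and *Cnn1* in none, so that some genes that define smooth muscle also lacked called promoter peaks. At *Tagln* the PBRM1 replicate 3 peak, 980 bp before a start, was apart from the region that the other libraries shared. By merged regions, 4 contractile genes had an own-promoter region in all 6 lists. With peaks of a −log10 q of at least 5 alone, 3 contractile genes had one in all 6 lists. At that threshold 9 epithelial genes had none in any list, *Cdh1* in BRG1 replicate 3 being the exception. The shares of all protein-coding genes at that threshold are not given here, so these counts stand without a background. The 6 libraries held 6 to 8 of the 10 contractile genes, and at most 3 of the 10 epithelial genes. Over all protein-coding genes, 34264 of 65265 pairs of gene and library were called for PBRM1 and 37129 of 65265 for BRG1. The contractile genes had 19 of 30 pairs for PBRM1 and 22 of 30 for BRG1, and the epithelial genes 4 and 5 of 30. Of 60 possible pairs, 41 were thus called for the contractile genes and 9 for the epithelial genes. The contractile values ran from 0.667 to 2.39 FPM with a median of 1.41. *Acta2*, a contractile gene, stood at 1.67, 1.10 and 1.29 FPM in the PBRM1 libraries and at 1.57, 1.47 and 1.60 in the BRG1 libraries. Every *Acta2* value lay above every value of the epithelial promoters. The sets overlapped in level at other genes. *Actg2* (0.667 in PBRM1 replicate 3), *Myh11* (0.732 in BRG1 replicate 3) and *Lmod1* (0.859 in PBRM1 replicate 1) had values below the highest epithelial value, 1.06.

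**Figure D2:**
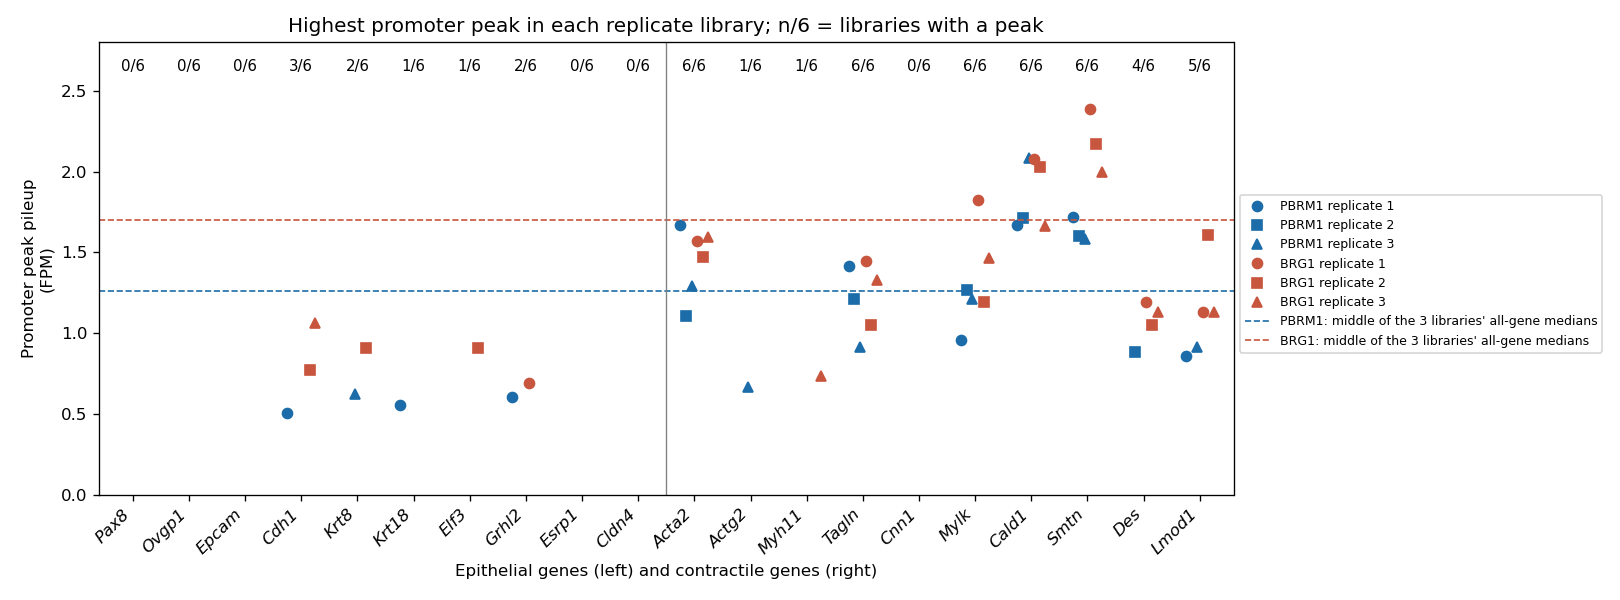
Pileup of the highest promoter peak (y axis, FPM) of each epithelial gene (left) and contractile gene (right), 1 point per replicate library in which a peak was called. Points of the epithelial genes lie between 0.505 and 1.06 and below the dashed lines (for each antibody, the middle of the all-gene medians of its 3 libraries), while 5 contractile genes have a point from every library.

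Pooling the 3 replicates of an antibody, as the authors did for a further list each, brought promoter peaks to 6 of the 10 epithelial genes for PBRM1 and 8 of 10 for BRG1. These shares are near those of all protein-coding genes, 66.0% and 67.8%, and so are no result about these genes. Their pooled levels were 0.372 to 0.549 FPM for PBRM1 and 0.464 to 0.774 for BRG1, all below the medians of all genes in those lists, 0.969 and 1.46. Of the 9 contractile genes with a pooled peak, 4 were below the PBRM1 median and 7 below the BRG1 median, and of the wider epithelial set described below, 13 of 18 and 15 of 19 were. *Pax8*, with no promoter peak in any replicate list, had 0.388 FPM in the pooled PBRM1 list and 0.464 in the pooled BRG1 list, at internal starts of the gene. *Cldn4* had 0.485 and 0.619. *Epcam* had 0.553 in the BRG1 list, 2 bp from its start, and no peak in the PBRM1 list. *Cdh1* gave the strongest pooled epithelial promoter peak, 0.774 FPM for BRG1, 4.23-fold over the local background, and 28.9% of the peaks in that list had a higher −log10 q. *Ovgp1* and *Esrp1* had no promoter peak even here.

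A wider set of 22 genes of epithelial junctions, keratins and transcription factors was read in the same way. *Tjp3*, *Grhl1*, *Klf5* and *Muc1* had a promoter peak in all 6 lists, 18.2% of the set, and *Cldn3*, *Cldn7*, *Ocln*, *Rab25*, *Prss8*, *Ehf*, *Foxj1* and *Sox17* in none. These 8 are 36.4% of the set, close to the 34.3% of all protein-coding genes. Genes of the tight junction stood at both ends: *Tjp3*, which encodes a scaffold of that junction, had 2.04 to 4.32 FPM over the 6 libraries, and *Ocln* (occludin) and the claudins had no replicate peak. Whether starts of other genes lay within 2 kb of these peaks was not examined for the wider set. *Foxj1*, the regulator of motile cilia, had no replicate peak but pooled levels of 0.985 FPM for PBRM1 and 1.30 for BRG1.

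Markers of other cell types were counted too. Of all protein-coding genes, 34.3% had a promoter peak in no list and 41.8% in all 6. Of 5 endothelial genes, *Tek* had a promoter peak in 6 lists, at up to 0.828 FPM, *Kdr* in 5, *Pecam1* in 1, and *Cdh5* and *Emcn* in none. Among leukocyte genes, *Csf1r* had one in 3 lists, *Spi1* in 2, and *Ptprc* and *Cd3e* in none. Among 5 neuronal genes, used as an outgroup, *Syt1* reached 4 lists and *Snap25* 2, and *Rbfox3*, *Stmn2* and *Gad1* had none. The *Syt1* levels were low, at 0.386 to 0.566 FPM. Those in PBRM1 replicate 2 (0.386) and BRG1 replicate 3 (0.399) equalled the lowest level called in these libraries. Promoter peaks in 1 to 6 lists were therefore also seen at genes of lineages other than the labelled one. In such bulk libraries a few cells with strong binding and many cells with weak binding cannot be told apart, and the epithelial content of the libraries was not measured.

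Promoters rich in CpG carried peaks more often than others in these lists, so the genes were also read by class. A promoter was CpG-rich when the 500 bp to each side of the gene's 5′ end had a GC content of at least 50% and a ratio of observed to expected CpG of at least 0.6. Over all genes, 67.9% of CpG-rich promoters had a peak in all 6 lists against 20.6% of the rest, and 57.8% of the rest had none. Of the epithelial genes, *Cdh1* and *Grhl2* were CpG-rich (ratios 0.717 and 0.757), and they had peaks in 3 and 2 lists. The 8 others had ratios of 0.207 to 0.585. Of these 8, 5 had no peak, a share of 62.5% that is close to the 57.8% of their class. In all 6 lists 0 of the 8 had one, against 20.6% of the class. Of the contractile genes 8 were likewise not CpG-rich, of which 4 had a peak in all 6 lists and 1 had none.

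To show the start sites at which replicate lists held no peak, the 250 bases upstream of the RefSeq start (GRCm38.p6) are given for *Pax8*, *Epcam* and *Cldn4*, the genes among these 5 for which that stretch holds no transcribed leader sequence. Each reads 5′ to 3′ on the gene's own strand. Capitals mark CACCTG or its reverse complement CAGGTG, the E-box word read by the SNAI and ZEB repressors of epithelial genes, and TGANTCA, the word of AP-1; no capitals overlap. *Pax8*, chr2:24475600-24475849, held none of the words searched, *Epcam*, chr17:87635729-87635978, held the E-box word at 187 and 19 bases before the start, and *Cldn4*, chr5:134946935-134947184, held it 14 bases before the start.
Pax8 promoter: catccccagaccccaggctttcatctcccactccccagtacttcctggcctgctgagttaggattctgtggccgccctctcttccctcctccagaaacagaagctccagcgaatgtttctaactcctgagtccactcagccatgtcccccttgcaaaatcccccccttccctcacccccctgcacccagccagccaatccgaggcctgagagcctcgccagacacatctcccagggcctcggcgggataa
Epcam promoter: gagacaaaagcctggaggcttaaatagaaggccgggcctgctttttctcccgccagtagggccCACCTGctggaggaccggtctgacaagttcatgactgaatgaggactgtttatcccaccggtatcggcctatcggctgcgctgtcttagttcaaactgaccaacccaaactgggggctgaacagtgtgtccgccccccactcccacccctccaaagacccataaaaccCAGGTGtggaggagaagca
Cldn4 promoter: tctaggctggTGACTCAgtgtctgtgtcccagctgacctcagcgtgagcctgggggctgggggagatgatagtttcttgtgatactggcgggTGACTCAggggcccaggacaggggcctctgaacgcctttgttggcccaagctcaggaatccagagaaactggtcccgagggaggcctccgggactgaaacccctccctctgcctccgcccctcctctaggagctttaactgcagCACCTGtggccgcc

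RefSeq promoters were at hand for 7 of the 10 genes, those of *Cdh1*, *Grhl2* and *Esrp1* being the exceptions. CACCTG on either strand was present in 6 of these 7 (*Ovgp1*, *Epcam*, *Krt8*, *Krt18*, *Elf3* and *Cldn4*), against 17.3% of all 32619 RefSeq promoters of this length. It was in 0 of the 7 contractile genes with a RefSeq promoter. The windows were not alike, since transcribed leader sequence filled 217 of the 250 bases at *Acta2*, 140 at *Krt8* and 91 at *Ovgp1*. At *Krt8* and *Ovgp1* the match to CACCTG lay within that leader. The *Mylk* window was at an internal start, away from the start with a peak in all 6 lists. TGANTCA was in *Ovgp1* and *Cldn4*, 2 of 7 against 6.78% of all promoters. AACCNGTT, read by grainyhead-like factors, CGGAAG, read by ETS factors, and the CArG box of SRF were in none of the 7, against 1.80%, 13.7% and 1.48% of all promoters. A match describes letters and is not a measured binding site.

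Regions away from the genes' own promoters were examined next. Merging overlapping peaks of the 6 replicate lists left 37 regions in the 10 windows: 6 at the gene's own promoter, 10 at the promoter of another gene and 21 distal. None of the 6 own-promoter regions was in all 6 lists and 4 of them were in 1 list. Of the 10 at promoters of other genes 4 were in all 6 lists, and of the 21 distal regions 4 were in all 6 and 1 in 5. Over the whole genome 15.5% of 82959 merged regions, of every class, were in all 6 lists, against 8 of these 37. Of distal regions in the windows of all protein-coding genes, 2924 of 37824 were in all 6 lists. For the contractile genes 6 of 17 own-promoter regions, 7 of 22 at promoters of other genes and 5 of 51 distal regions were. Shares over all genes for the promoter classes are not given here. The density of distal regions found in all 6 lists was 0.542 per 100 kb of window for the epithelial genes, 0.472 for the contractile genes and 0.206 over the windows of all protein-coding genes. Counting distal regions in any number of lists, the order differed, with 2.84 per 100 kb for the epithelial genes, 4.81 for the contractile genes and 2.67 over all windows. The density in all 6 lists rests on 4 and 5 regions in the epithelial and contractile sets, and counted in gene bodies alone the epithelial genes had 1 such region. *Epcam* had no region of any class in its window in any replicate list. The nearest in all 6 lists lay 21344 bp beyond the gene, just outside the 20 kb bound, with a mean of 2.06 FPM.

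**Figure D3:**
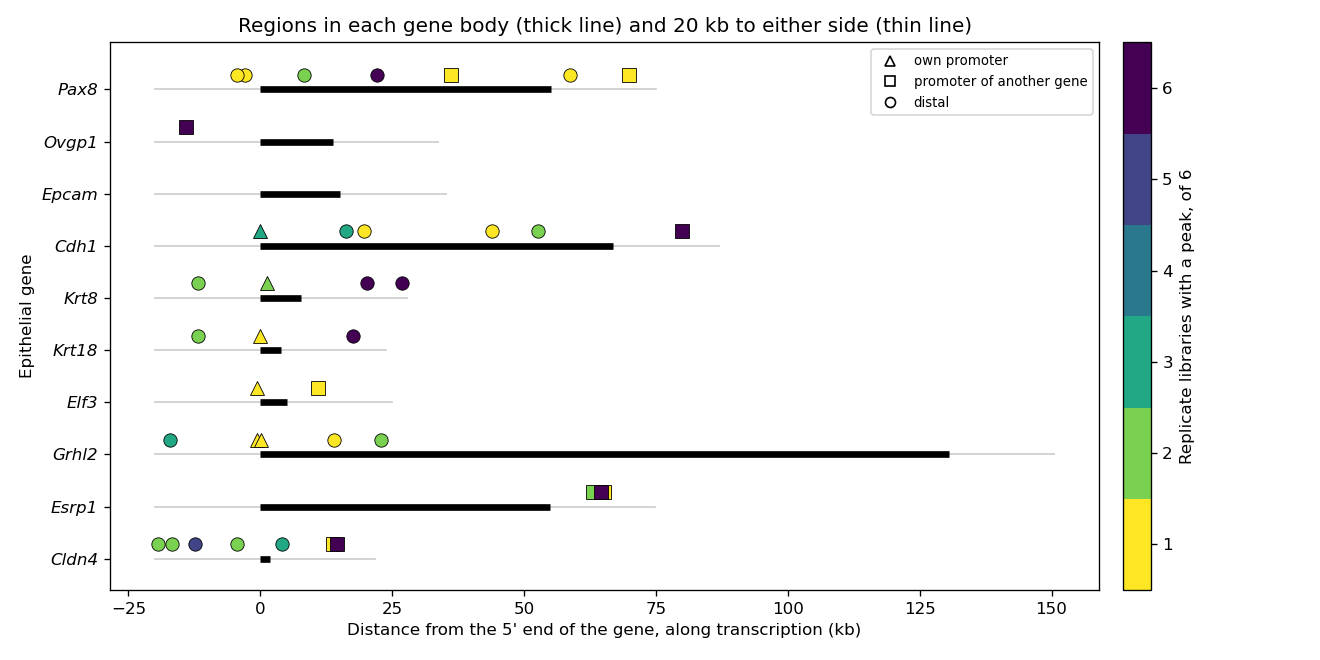
Position of each merged region relative to the 5′ end of the epithelial gene (x axis, kb along transcription; 1 row per gene), with shape for its class and colour for the number of the 6 libraries with a peak. The darkest symbols, in all 6 libraries, are circles (distal: *Pax8*, *Krt8* and *Krt18*) and squares (starts of other genes: *Ovgp1*, *Cdh1*, *Esrp1* and *Cldn4*), and no triangle (own promoter) passes 3 libraries.

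The distal regions in all 6 lists lay at *Pax8*, *Krt8* and *Krt18*, and 201 bases around the pooled BRG1 summit are given for the strongest of each gene, on the forward strand of GRCm38, so that the kinds of sequence can be compared. Capitals mark TGANTCA, the one word of those searched that occurred. The *Pax8* window, chr2:24453515-24453715, had a GC content of 47.3%, 1 CpG and no match. The *Krt8* window, chr15:101977392-101977592, had 80.6% GC and 26 CpG, and the *Krt18* window, chr15:102045598-102045798, 52.2% GC and 7 CpG. Each of these held 1 match. The window of the other *Krt8* region in all 6 lists, chr15:101984154-101984354, is not shown and held none. Of the 4477 distal regions in all 6 lists, 18.6% held a match in a window of this length.
Pax8 distal region: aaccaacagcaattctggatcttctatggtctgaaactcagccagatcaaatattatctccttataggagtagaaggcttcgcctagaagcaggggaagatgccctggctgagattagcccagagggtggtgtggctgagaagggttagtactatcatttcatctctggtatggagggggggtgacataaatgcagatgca
Krt8 distal region: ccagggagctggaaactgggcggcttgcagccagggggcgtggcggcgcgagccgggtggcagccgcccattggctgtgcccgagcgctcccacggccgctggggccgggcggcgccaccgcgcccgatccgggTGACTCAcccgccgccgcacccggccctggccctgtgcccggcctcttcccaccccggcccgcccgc
Krt18 distal region: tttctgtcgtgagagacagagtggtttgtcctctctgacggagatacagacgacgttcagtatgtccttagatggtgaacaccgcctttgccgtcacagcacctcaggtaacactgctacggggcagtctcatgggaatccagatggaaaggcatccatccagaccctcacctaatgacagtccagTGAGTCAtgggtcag

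The *Pax8* region, chr2:24453028-24454197, lies in an intron of *Pax8* and of the overlapping gene *Gm13415*, 22083 bp downstream of the 5′ end of *Pax8* and 7616 bp from its nearest annotated start. It stood at 1.41, 1.43 and 1.21 FPM in PBRM1 replicates 1 to 3 and at 1.70, 1.47 and 0.931 in BRG1 replicates 1 to 3. The antibodies overlapped, since BRG1 replicate 3 was the lowest of all 6 and BRG1 replicate 1 the highest. The gene that marks the secretory lineage thus had no called promoter peak in any replicate and an intronic region called in every one.

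*Krt8* had 2 such regions, both intergenic. The one at chr15:101976925-101977873 is 26950 bp from the start and 19166 bp beyond the 3′ end of *Krt8*, so it is just inside the window, and the nearest RefSeq start, that of *Krt78*, lies 19092 bp from its summit. By mean FPM it was the highest region of the 10 genes, although the *Tango6* start near *Cdh1* had the higher fold enrichment in the pooled lists (7.62 and 8.32 for PBRM1 and BRG1, against 4.22 and 3.99). The *Krt8* region stood at 1.52, 1.60 and 1.46 FPM for PBRM1 and 2.26, 2.03 and 2.39 for BRG1, and every BRG1 library was above every PBRM1 library. The other, chr15:101983916-101984893, 20176 bp from the start, had 1.31, 1.21 and 1.13 FPM for PBRM1 and 1.26, 1.33 and 1.53 for BRG1, with overlapping groups. *Krt18*, the neighbour of *Krt8*, had a region at chr15:102045139-102046204, 17515 bp past its start. It had 1.06, 1.32 and 0.959 FPM for PBRM1 and 1.70, 1.75 and 1.53 for BRG1, without overlap. By GENCODE this region is distal, but the RefSeq annotation places a start of the predicted gene *Gm41405* 377 bp from its summit. The windows of *Krt8* and *Krt18* also share a region between the genes, chr15:102016125-102016374, called in PBRM1 replicates 1 and 3 and in no BRG1 replicate.

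At *Cldn4* a distal region 12365 bp before the start, chr5:134958957-134959588, was in 5 lists. Its level was 1.62 and 1.33 FPM in PBRM1 replicates 1 and 3, with no peak in replicate 2, and 1.38, 1.47 and 1.53 in the BRG1 libraries. *Cldn4* had 4 further distal regions in 2 or 3 lists each. Distal regions in 3 lists also occurred in an intron of *Cdh1*, 16229 bp past its 5′ end (0.758 and 0.584 FPM in PBRM1 replicates 1 and 3 and 0.931 in BRG1 replicate 3), and 17058 bp before *Grhl2* (0.556 and 0.497 in PBRM1 replicates 1 and 2 and 0.700 in BRG1 replicate 2). No distal region was called near *Ovgp1*, *Epcam*, *Elf3* or *Esrp1* in any replicate list.

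The remaining 4 regions in all 6 lists lay at the starts of neighbours that are not epithelial markers. The window of *Ovgp1* reached the shared start of *Atp5f1*, a subunit of mitochondrial ATP synthase, and *Wdr77*, 14156 bp upstream, at 0.960, 0.883 and 0.667 FPM for PBRM1 and 1.07, 0.910 and 1.40 for BRG1. The window of *Cdh1* reached the start of *Tango6*, at 1.82, 1.54 and 0.959 and at 2.01, 1.54 and 2.00. That of *Esrp1* reached *Dpy19l4*, at 1.01, 1.21 and 0.917 and at 1.45, 1.68 and 1.46. That of *Cldn4* reached *Mettl27*, at 1.41, 1.32 and 0.959 and at 1.64, 1.12 and 1.93. Each neighbour therefore had a start region called in every library, within the same 20 kb window as an epithelial gene whose own start had 0 to 3.

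**Figure D4:**
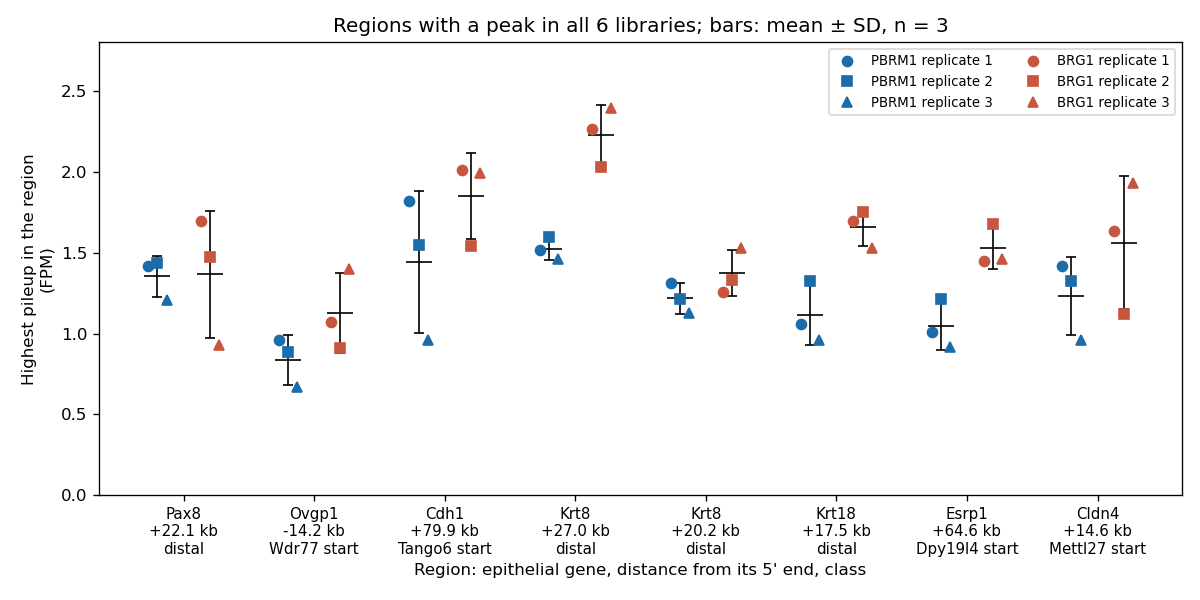
Highest pileup (y axis, FPM) in each of the 8 regions near epithelial genes with a peak in all 6 libraries (x axis), 1 point per library, with mean and SD of 3 libraries per antibody as bars. BRG1 lies wholly above PBRM1 at the *Krt8* region 26950 bp from the start, at the *Krt18* region and at the start of *Dpy19l4*, and the antibodies overlap in the other 5.

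BRG1 was then compared with PBRM1 at regions with a peak in all 6 lists, by limma over all 12830 of them. BRG1 was higher in 6793 (52.9%) and PBRM1 in 53 (0.413%) at an adjusted p under 0.05, and the median difference was 0.49 on the log2 scale, a shift over most regions. The groups differ in antibody as well as in protein, so neither this shift nor a difference at any region measures relative protein amount. As the labels do not say that replicates came from separate mice, these p-values measure the spread between libraries, which may be technical. Relative to that shift, with each library centred on its median, 314 regions (2.45%) were higher for BRG1 and 288 (2.24%) for PBRM1. At the 8 epithelial regions the uncentred log2 difference, BRG1 minus PBRM1, had a median of 0.41, and 3 of 8 were called, each with BRG1 higher. They were the *Krt18* region (0.59, SE 0.21, limma adjusted p = 0.0139), the *Dpy19l4* start at *Esrp1* (0.55, SE 0.21, limma adjusted p = 0.0218) and the *Krt8* region 26950 bp from the start (0.55, SE 0.19, limma adjusted p = 0.0116). After centring none of the 8 was called in either direction by limma, and 0.12, 0.09 and 0.08 remained of those 3 differences. With fold enrichment in place of pileup the *Krt8* difference changed sign, to −0.15, *Krt18* kept its call at 0.50, and *Dpy19l4* missed the threshold at 0.45. Leaving out BRG1 replicate 3 (*Krt8*), PBRM1 replicate 3 (*Krt18*), or any one of PBRM1 replicates 1 and 3 and BRG1 replicate 2 (*Dpy19l4*) also ended the call by limma, though the differences were still 0.49, 0.48 and 0.46 to 0.53. The uncentred share of 3 in 8 is below the background of 52.9%, and for the contractile genes it was 7 of 18 regions with a median of 0.39.

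By FPM with all 6 libraries, the *Pax8* intron departed most from the general shift among the 8. Its difference was −0.03 (SE 0.21, 95% interval −0.45 to 0.39, limma adjusted p = 0.922), and 93.8% of all regions had a higher one. After centring it was −0.49 (95% interval −0.90 to −0.09, limma adjusted p = 0.140), which did not pass the threshold. Its place among the 8 did not hold throughout: on fold enrichment it was 0.10 against a median of 0.20 over all regions, with −0.19 at the *Krt8* region 20176 bp from the start, and without BRG1 replicate 3 it was 0.23 against a median of 0.47, with 0.09 at that *Krt8* region. The *Krt8* region 20176 bp from the start had a difference of 0.17 (SE 0.21, limma adjusted p = 0.484). Differences of 0.42 at *Wdr77*, 0.40 at *Tango6* and 0.33 at *Mettl27* did not pass either (limma adjusted p = 0.103, 0.0858 and 0.180), but *Tango6* was called without PBRM1 replicate 1 (0.59) or BRG1 replicate 2 (0.53) and *Mettl27* without BRG1 replicate 2 (0.55). An adjusted p above the threshold does not show that the 2 proteins were equally present, and the intervals reach from −0.24 to 0.58 at the *Krt8* region 20176 bp from the start.

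**Figure D5:**
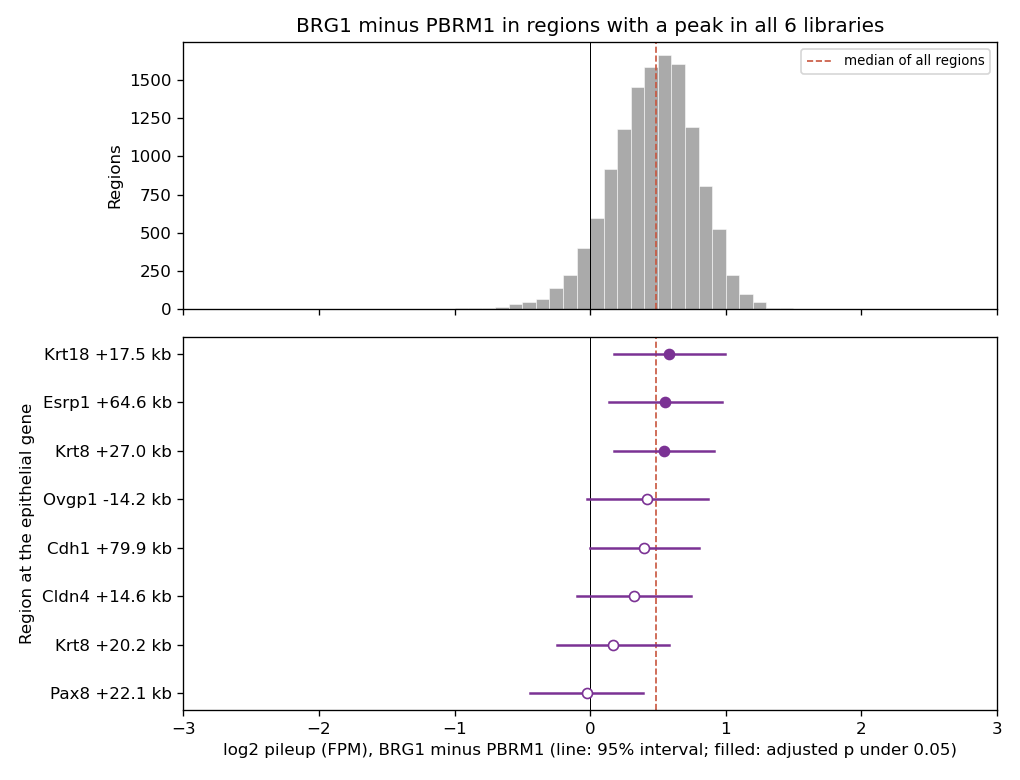
Upper panel: number of regions (y axis) by the log2 difference in pileup FPM, BRG1 minus PBRM1 (x axis), over the 12830 regions in all 6 libraries. Lower panel: the 8 regions near epithelial genes with 95% intervals from limma, filled where the adjusted p was under 0.05. The dashed line is the median of all regions, 0.49, and the *Pax8* interval alone ends below it.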

How the data were processed

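ChIC-seq peak lists of 6 libraries, 3 for PBRM1 and 3 for BRG1, and of the 2 antibodies pooled were used. MACS 2.2.7.1 in narrow-peak mode was run by the authors with q below 0.05, per the file headers, with duplicates kept at that step and no control, the background being the library itself within 10 kb. Open chromatin cut by the nuclease without the antibody's target could therefore be called as well. The processing notes name cutadapt, Bowtie2, MACS2 and GRCm38.p5. The deposited pileup is a signal (coverage at the summit), the deposited fold enrichment is a ratio to the local background, and the authors' q-value is given as −log10 q. Pileup was scaled to 1000000 fragments of the file header (FPM), since depth differs between libraries.

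Peaks were joined to GENCODE M21 (Python 3.11.15, pandas 2.3.3, pysam 0.24.0). Peaks sharing at least 1 bp formed a region, scaffolds left out. BRG1 and PBRM1 were compared by limma 3.58.1 (R 4.3.3, trend on mean level) on log2 FPM, with Benjamini-Hochberg adjustment over all regions tested, and the step was tested on simulated data. Selecting regions called in all 6 lists removes low values. All 10 epithelial and 10 contractile genes are named, of the 22 others those in all or no lists, and sequence is shown for the strongest distal region of a gene. Members and lists were chosen with earlier results of these data known. Alternatives changed the q threshold, the promoter distance, the window, the scaling and the libraries used. Replicate numbers were not taken as pairs, since same-numbered libraries did not deviate together. One marker of another cell type is not reported here.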

Additional observations from a re-analysis of the deposited data

How the results depend on the processing

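Numbers of peaks followed the q threshold and the promoter distance. With a −log10 q of at least 5, 9 epithelial genes had no promoter peak (main 5), the mean per list was 0.167 genes (main 1.50), and contractile genes in all 6 lists fell to 3 (main 5), those in none rose to 4 (main 1) and their mean per list was 4.67 (main 6.83). With promoters of 5 kb, 3 epithelial and 0 contractile genes had none and the contractile mean was 7.83. With equal numbers of peaks, 2 contractile genes had none. Leaving out 1 library gave 1 to 2 such genes, 2 without PBRM1 replicate 3 and without BRG1 replicate 3. The count of epithelial genes with a promoter peak in all lists was 0 under each of these settings, promoters of 1 kb and a single start per gene included. Shares of all protein-coding genes under these settings are not given here, so the counts show only how far each set moved with the setting. Distal regions in all 6 lists numbered 1 in gene bodies alone (main 4) and 6 with 50 kb on each side.

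In limma, BRG1-higher and PBRM1-higher regions numbered 314 and 288 after median centring (52.2% of calls BRG1 higher, against 99.2%), 1371 and 28 on fold enrichment, and 360 and 322 with the replicate block and median centring. PBRM1-higher regions numbered 83 with at least 2 lists per antibody and 12 with a −log10 q of at least 5. Without 1 library the counts ran from 4978 to 6429 and from 30 to 66. The replicate block alone gave 6589 and 50. Same-numbered libraries had correlations of deviations of 6.19e-06, 0.00374 and −0.0286, so the numbers showed no pairing, and the block alone changed the call of no epithelial region.

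Log2 differences that changed sign with median centring, with or without the replicate block, were those at *Ovgp1* (−0.0439), *Cdh1* (−0.0662), *Cldn4* (−0.14) and the *Krt8* region 20176 bp from the start (−0.30). On fold enrichment *Pax8* gave 0.10, the *Krt8* regions −0.15 and −0.19, and *Cldn4* −0.10. Without 1 library *Pax8* ranged from −0.20 to 0.23. The causes were not tested. IgG was not analysed here, so cutting without the target could not be subtracted.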
